A study of Danio rerio with 18 samples.

Results

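The Fos, Jun and Egr immediate early genes are 10 genes for DNA-binding transcription factors, fosab, fosb, fosl1a and fosl2 of the Fos family, jun, junba, junbb and jund of the Jun family, and egr1 and egr2b of the Egr family. They were taken by name, as the probe sets whose single gene symbol in the array's probe-to-gene table is one of these 10 symbols. Each of the 10 genes had 1 probe set, so that 10 probe sets of 75212 on the array, and 10 genes of 19260 with a name, make up the group. No probe set of theirs had values identical to those of another, and no filter on low values was used. Their Entrez gene IDs in that table are 394198 (fosab), 492346 (fosb), 564241 (fosl1a), 558921 (fosl2), 335916 (jun), 407086 (junba), 336038 (junbb), 564873 (jund), 30498 (egr1) and 30190 (egr2b), and the RefSeq table of the zebrafish assembly GRCz12tu gives the same symbol for each ID. The sequences of the genes were not used here.

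RNA was measured on 18 zebrafish (Danio rerio) arrays, 6 for each of 3 groups, from cells labelled as lateral line primordium, the migrating epithelial cluster that deposits the sensory organs of the lateral line. FGF overexpression embryos carried cldnb:lynGFP, cxcr4b:nls-tdTomato, cxcr4b:LexPR and lexOP:Fgf3-GFP and received 10 μM RU486, which activates the LexPR driver, with 0.1% DMSO. SU5402 embryos carried only cldnb:lynGFP and cxcr4b:nls-tdTomato and received 1 μM SU5402, an inhibitor of FGF receptor 1, with the same RU486 and DMSO. Control embryos, called untreated in the sample labels, carried those same 2 reporters and received RU486 and DMSO alone per the treatment protocol, so that every group had been exposed to RU486 and none was free of a transgene. The driver runs from the cxcr4b promoter and is present in FGF overexpression embryos alone, so its effect and that of Fgf3 cannot be told apart. Embryos were under 3 days old per the labels, and the labels call the replicates biological without saying what separates them, so p-values measure the spread between these samples.

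Fos and Jun proteins pair through leucine zippers to form the AP-1 transcription factor, Jun proteins also pair with each other, and Egr proteins bind DNA through zinc fingers. Their genes are called immediate early because in many animal cells they are transcribed within minutes of a stimulus, before any new protein is made. One well-known route is the receptor tyrosine kinase, Ras and ERK cascade, which FGF receptors feed, acting through serum response factor and its ternary complex partners, and stress and wounding act on the same genes. The comparisons here ask how these genes differed with less and with more FGF signalling. Times after the start of treatment were not compared, so a brief early change in any of these genes was not tested.

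Values are log2 signals, so a difference of 1 is a doubling. Array medians lay between 5.89 and 5.99, and the highest single value of any probe set was 13.88. fgf3, the ligand gene on the transgene, averaged 12.39 ± 0.13 in FGF overexpression, 9.11 ± 0.26 in SU5402 and 7.12 ± 0.46 in control (SD, n = 6 each). etv4, an ETS factor gene activated by FGF-ERK signalling, averaged 10.99 ± 0.12 in FGF overexpression, 5.73 ± 0.27 in SU5402 and 9.26 ± 0.32 in control. The reporter genes of the primordium were high throughout, with cldnb between 11.70 and 12.11 in control and cxcr4b between 10.14 and 10.91. Skeletal muscle markers were high too, and skin and periderm markers averaged 9.70 in control. Control means were lower for erythroid (7.17), neuron and glia (6.87), endothelium (6.52) and leukocyte markers (6.28). The mean over 20 skeletal muscle markers was 10.50 to 11.18 in FGF overexpression, 10.34 to 11.25 in SU5402 and 10.54 to 11.28 in control arrays, so that the samples did not hold primordium RNA alone. In such bulk samples fewer cells of a type and less RNA per cell cannot be told apart.

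All but 1 of the 10 genes gave a strong signal in every group, control included. Stress and wounding act on these genes too, and whether handling of the cells before RNA was taken raised their levels was not tested. Averaged over the 18 arrays, 7 of the 10 lay above 10 (fosab 12.46, egr1 12.04, fosl1a 11.91, junba 11.91, fosl2 11.38, jun 10.64 and fosb 10.15), a range that held 3.90% of named genes. junbb averaged 9.38 and jund 8.87. egr2b, which encodes a zinc finger factor known for its role in hindbrain segmentation, averaged 6.40, below the median of 6.85 for named genes in control. Probe sets differ in how they bind, so these values place each gene on the array's scale and do not rank the genes. fosab, egr1, fosl1a and junba lay 1.42 to 1.97 below the highest value on any array, and whether the array compresses differences there was not measured. fgf3 averaged 7.12 in control and 12.39 in FGF overexpression, a log2 change of 5.27. That change starts below this range, so it does not show how small differences within the range are read.

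**Figure D1:**
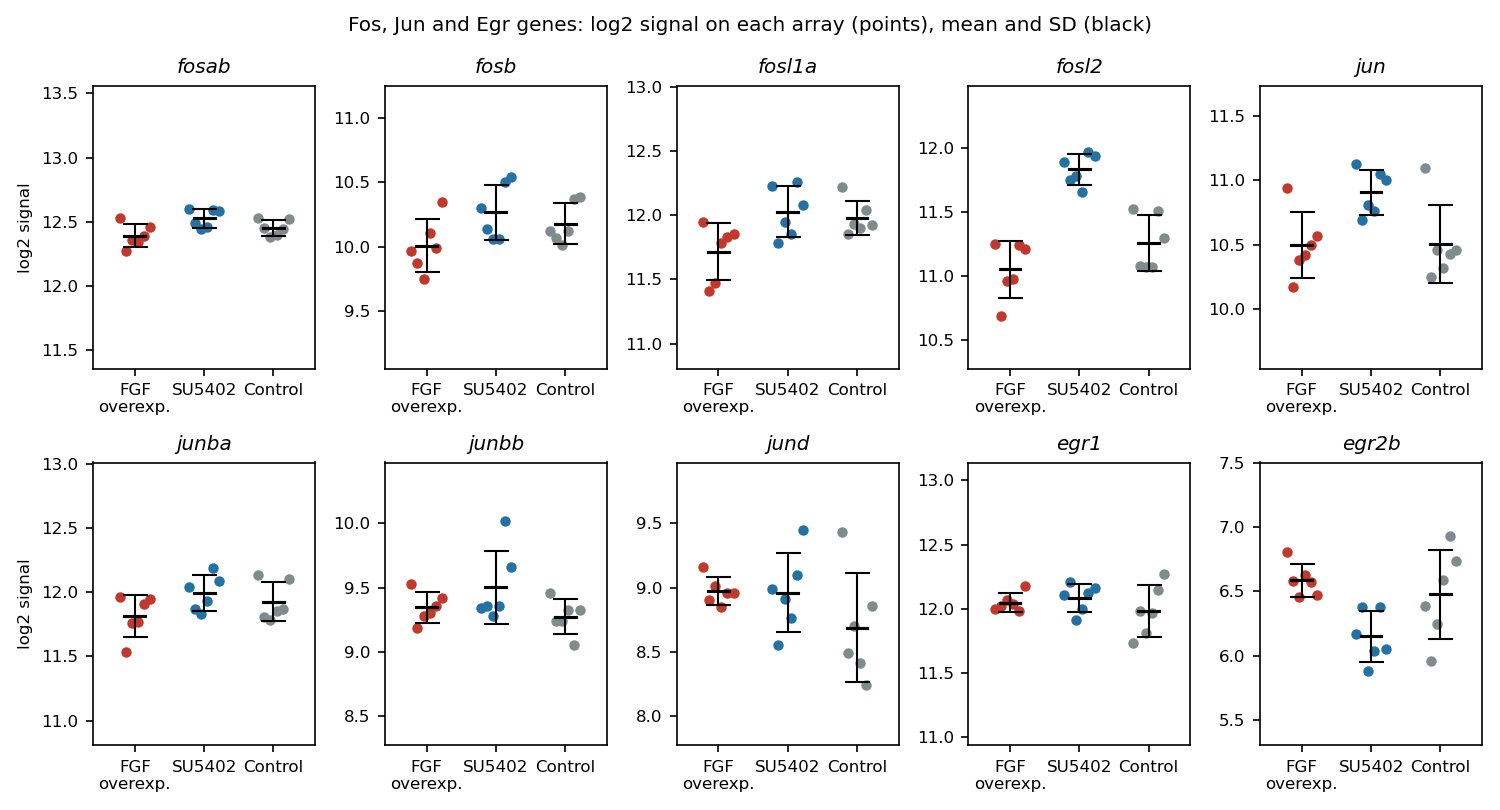
Log2 signal (y axis) of each Fos, Jun and Egr gene on the 6 FGF overexpression, 6 SU5402 and 6 control arrays (x axis), with 1 point per array and the mean and SD in black; each panel spans the same number of log2 units. fosl2 is the gene whose SU5402 arrays (11.66 to 11.97) lie above every control array (11.07 to 11.52), and for the other 9 genes the SU5402 and control arrays overlap.

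Under SU5402, 1 of the 10 genes rose, fosl2, and none fell. In the whole set of named genes 14.7% passed the same test in either direction and 6.57% passed it as higher, so a count of 1 in 10 is close to the background. Arrays of SU5402 and control did not overlap for 1 of the 10, against 9.76% of named genes. Measured changes were small, from -0.33 for egr2b to 0.57 for fosl2, with a median of 0.09 against 0.01 for all named genes. Under FGF overexpression none of the 10 genes passed against control by limma, where 5.89% of named genes did, and 1 of the 10 had an unadjusted p under 0.05. None of the 10 had groups without overlap there, against 5.02% of named genes. Those changes ran from -0.26 for fosl1a to 0.29 for jund, with a median of -0.03. Adding the replicate number to the limma model brought none of the 10 past the threshold there, against 7.56% of named genes. In that model fosb, fosl1a and fosl2 had an unadjusted p under 0.05 (0.0354, 0.00373 and 0.0148). Between FGF overexpression and SU5402, fosl2 was lower and egr2b higher, 2 of 10 against 24.4% of named genes (12.5% higher and 11.9% lower). The same pair had groups without overlap, against 16.6% of named genes. These counts depended on the model. With the replicate number in it, 1 gene was higher (egr2b) and 4 lower (fosb, fosl1a, fosl2 and jun) in FGF overexpression than in SU5402. Of named genes 13.5% were then higher and 13.2% lower. In the same model 2 genes rose under SU5402 against control (fosl2 and jun), where 7.31% of named genes did. These adjusted p-values come from limma with the Benjamini-Hochberg method over all 75212 probe sets; a gene passed below 0.05, whatever its fold.

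**Figure D2:**
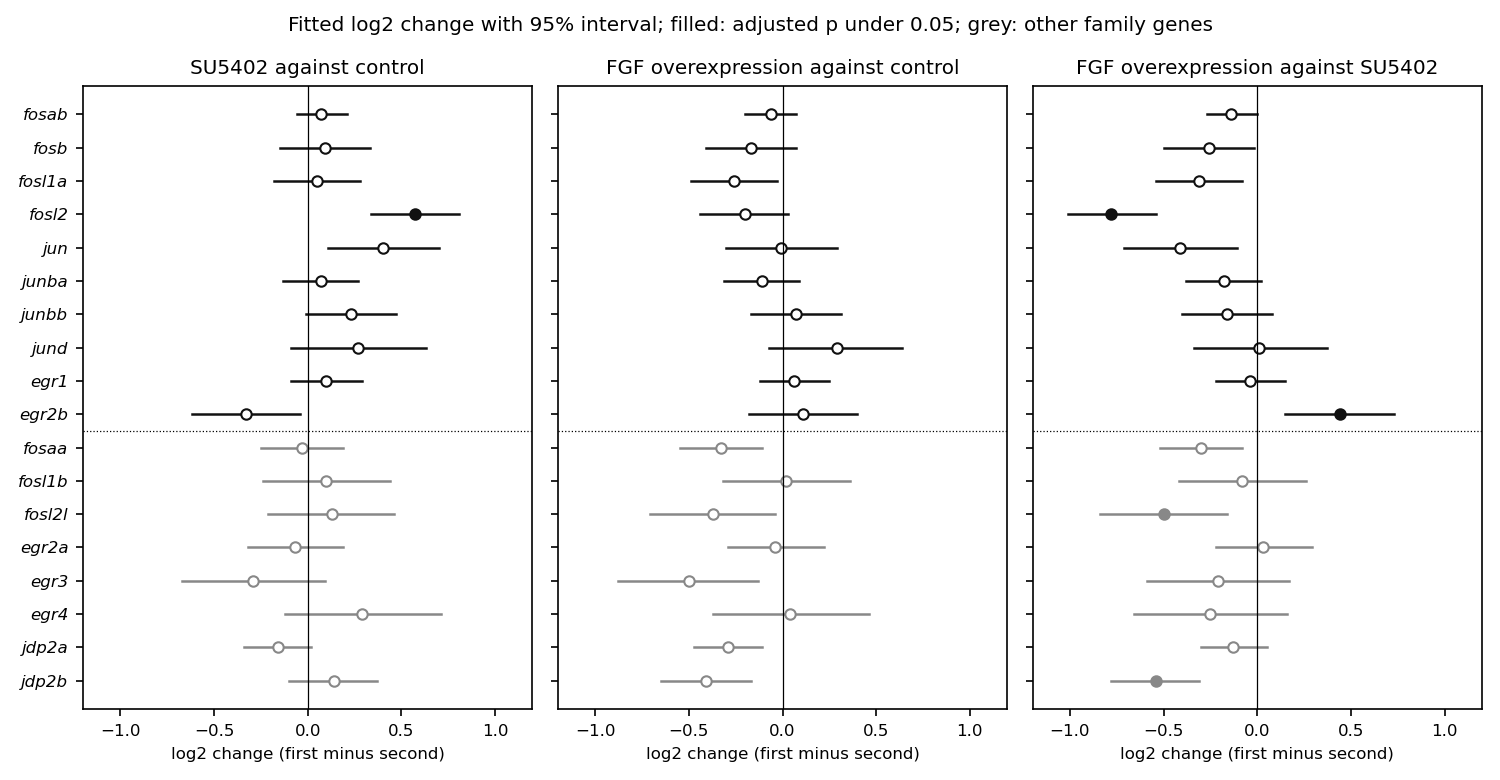
Fitted log2 change (x axis, first group minus second) with its 95% interval for the 10 Fos, Jun and Egr genes (black) and 8 other genes of these families (grey) in the 3 comparisons; filled points have an adjusted p under 0.05. fosl2 is the single gene filled under SU5402 (0.57), no gene is filled under FGF overexpression against control, and 4 are filled between FGF overexpression and SU5402.

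fosl2, which encodes the Fos-related factor Fra-2, was the gene that moved most. It read 10.69, 10.96, 10.98, 11.21, 11.24 and 11.25 on the FGF overexpression arrays. On the SU5402 arrays it read 11.66, 11.75, 11.78, 11.89, 11.94 and 11.97, and on the control arrays 11.07, 11.07, 11.08, 11.30, 11.51 and 11.52. Every SU5402 array lay above every array of the other groups, by at least 0.14 over control, whereas FGF overexpression and control overlapped. The rise under SU5402 was 1.49-fold (log2 change 0.57, 95% interval 0.34 to 0.81, adjusted p = 0.00212). Against SU5402, FGF overexpression was 1.71-fold lower (log2 change -0.78, 95% interval -1.01 to -0.54, adjusted p = 5.58e-05). FGF overexpression against control was -0.20 and did not pass (95% interval -0.44 to 0.03, adjusted p = 0.405), although all 6 FGF overexpression arrays lay below the control mean. By mean level the order was SU5402, control, FGF overexpression, and the neighbours control and FGF overexpression did not differ by the test.

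Marker levels moved on the same arrays. SU5402 lowered 9 and raised 1 of 20 markers of skin and periderm, whose mean was 8.77 to 9.27 in SU5402 arrays against 9.23 to 9.90 in control arrays. Of 9 erythroid markers 3 rose under SU5402, with a mean of 7.22 to 8.24 in SU5402 against 6.71 to 7.74 in control. Markers of endothelium (5 of 10), leukocytes (3 of 11), hair cells (3 of 9) and neurons and glia (2 of 11) passed as lower. Of 15 primordium markers 3 rose and 4 fell. The shares were 50.0% for skin and periderm and for endothelium, and 46.7% for primordium. They were 33.3% for erythroid and for hair cell markers, and 27.3% for leukocytes. Of named genes 14.7% passed (6.57% higher and 8.13% lower). Neuron and glia markers, at 18.2%, were close to that share. None of the 20 skeletal muscle markers passed in the model with group means alone. All 20 lay below control under SU5402, with a median log2 change of -0.18. Of these, 2 passed as lower once the replicate number entered the model. The array gives every probe set a signal, so none reads as absent. In SU5402 the endothelium and leukocyte means, 5.93 and 5.90, were at the level of the array medians. The part of these markers in the fosl2 result was not tested.

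The other Fos genes stayed close to their control values under SU5402. fosab, one of the zebrafish counterparts of mammalian Fos, had the narrowest spread of the group, with 12.27, 12.38 and 12.53 as lowest, median and highest value in FGF overexpression, 12.44, 12.54 and 12.60 in SU5402, and 12.38, 12.45 and 12.53 in control. Its 18 values spanned 0.33 log2 units and the groups overlapped. Its interval against control reached from 0.959-fold to 1.15-fold under SU5402, and from 0.873-fold to 1.05-fold under FGF overexpression. FGF overexpression against SU5402 was -0.14 for fosab (95% interval -0.27 to 0.00, adjusted p = 0.174). That change passed in 1 of 33 settings (adjusted p = 0.0442). fosb gave 9.75, 9.98 and 10.35 in FGF overexpression, 10.06, 10.22 and 10.54 in SU5402, and 10.01, 10.12 and 10.39 in control. Its groups overlapped as well, and neither treatment passed against control (adjusted p = 0.504 under FGF overexpression and 0.747 under SU5402). FGF overexpression against SU5402 was -0.26 for fosb (95% interval -0.50 to -0.02, adjusted p = 0.140). It passed in 1 of 33 settings, with the replicate number in the model (adjusted p = 0.0252). fosl1a, which encodes the Fos-related factor Fra-1, gave 11.41, 11.81 and 11.95 in FGF overexpression, 11.78, 12.02 and 12.26 in SU5402, and 11.85, 11.93 and 12.22 in control. All 6 FGF overexpression arrays lay below the mean of the control arrays and below that of the SU5402 arrays, but the groups overlapped. The log2 change was -0.26 against control (95% interval -0.49 to -0.03, adjusted p = 0.240) and -0.31 against SU5402 (95% interval -0.54 to -0.08, adjusted p = 0.0641). The change against SU5402 passed in 5 of 9 other fits, scalings and filters. With those that leave out arrays it passed in 7 of 33 settings.

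Among the Jun genes none passed in the 3 comparisons in the model with group means alone, and jun passed under other settings. jun, the gene for the core Jun subunit of AP-1, gave 10.17, 10.46 and 10.94 as lowest, median and highest value in FGF overexpression, 10.69, 10.91 and 11.13 in SU5402, and 10.25, 10.45 and 11.10 in control. All 6 SU5402 arrays lay above the control mean, and 1 control array at 11.10, replicate 1, lay among them while the other 5 lay between 10.25 and 10.46. The log2 change under SU5402 was 0.40 (95% interval 0.11 to 0.70, adjusted p = 0.0881), and without control replicate 1 it was 0.52 and passed (adjusted p = 0.00748). Of 33 settings 6 brought it past the threshold. With the replicate number in the limma model it was again 0.40 and passed (95% interval 0.24 to 0.57, adjusted p = 0.00373). Replicate 1 was also the highest jun array in SU5402 and in FGF overexpression. FGF overexpression against SU5402 was -0.41 and missed the threshold (95% interval -0.71 to -0.11, adjusted p = 0.0548). It passed in 8 of 9 other fits, scalings and filters, and in 12 of 33 settings once those that leave out arrays are counted. With the replicate number in the limma model its adjusted p was 0.00201. Against control jun was at -0.01 under FGF overexpression (95% interval -0.30 to 0.29), a value whose sign turned under several settings. In the model with group means alone the neighbours in the order of jun levels thus did not differ by the test. With the replicate number in the model, SU5402 and control did.

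junba and junbb are both counterparts of mammalian JunB. junba gave 11.53, 11.84 and 11.96 in FGF overexpression, 11.83, 11.99 and 12.19 in SU5402, and 11.78, 11.86 and 12.13 in control, with log2 changes against control of -0.11 under FGF overexpression and 0.07 under SU5402 (adjusted p = 0.628 and 0.760). junbb gave 9.19, 9.33 and 9.53 in FGF overexpression, 9.28, 9.36 and 10.02 in SU5402, and 9.05, 9.29 and 9.46 in control, with log2 changes against control of 0.07 and 0.23 (adjusted p = 0.821 and 0.270). For both genes all 3 groups overlapped. jund, whose mammalian counterpart is expressed more steadily than other Jun genes, gave 8.85, 8.96 and 9.16 in FGF overexpression, 8.55, 8.95 and 9.45 in SU5402, and 8.24, 8.60 and 9.43 in control, where the spread was widest. Its mean was higher than in control by 0.29 under FGF overexpression and by 0.27 under SU5402, within the control spread (SD 0.42, adjusted p = 0.447 and 0.406).

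egr1, a zinc finger factor gene that ERK signalling induces in many cell types, gave 11.98, 12.03 and 12.18 in FGF overexpression, 11.91, 12.12 and 12.21 in SU5402, and 11.73, 11.98 and 12.27 in control. The arrays of both treatments lay inside the range of the control arrays. Its log2 change against control was 0.06 under FGF overexpression (95% interval -0.12 to 0.25, adjusted p = 0.790) and 0.10 under SU5402 (95% interval -0.09 to 0.29, adjusted p = 0.596). On the fold scale the interval ended at 1.19-fold under FGF overexpression and began at 0.942-fold under SU5402. On the same arrays etv4 was 3.31-fold higher under FGF overexpression and 11.5-fold lower under SU5402, where its mean lay below the array medians, so the fold may be understated. dusp6, the ERK phosphatase gene, was 2.59-fold higher under FGF overexpression (adjusted p = 3.15e-07) and at 0.03 (log2) under SU5402 (adjusted p = 0.916).

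egr2b was the one member called higher under FGF overexpression than under SU5402. It read 6.46, 6.58 and 6.81 as lowest, median and highest value in FGF overexpression, 5.88, 6.11 and 6.38 in SU5402, and 5.96, 6.49 and 6.93 in control. FGF overexpression and SU5402 did not overlap, with a gap of 0.08, and control spanned most of both. The log2 change between FGF overexpression and SU5402 was 0.44 (95% interval 0.15 to 0.73, adjusted p = 0.0357). In the same comparison 5 of 11 neuron and glia markers were higher and none lower, with a mean of 6.88 to 7.20 in FGF overexpression arrays against 6.26 to 6.95 in SU5402 arrays. Of these, the neural crest and glia gene sox10 was higher by 0.79 (adjusted p = 9.94e-06). The lowest change in that list was -0.33, and 4 of the 11 changes lay below 0. Of 20 skin and periderm markers 9 were higher and 1 lower, with a mean of 9.41 to 9.70 in FGF overexpression against 8.77 to 9.27 in SU5402. Hair cell (4 of 9) and leukocyte markers (4 of 11) were higher too, with none lower. The shares that passed were 45.5% for neuron and glia, 50.0% for skin and periderm, 44.4% for hair cell and 36.4% for leukocyte markers. Of named genes 24.4% passed (12.5% higher and 11.9% lower). Endothelium markers gave 2 of 10 higher and none lower, and primordium markers 4 higher and 3 lower of 15. No skeletal muscle or erythroid marker passed. The part of these markers in the egr2b result was not tested. Leaving out SU5402 replicate 1, 3, 4 or 6, or FGF overexpression replicate 1, 2, 4 or 5, ended the call (adjusted p = 0.0547 to 0.0838). Against control the changes were 0.11 under FGF overexpression (adjusted p = 0.763) and -0.33 under SU5402 (adjusted p = 0.173), and the change under SU5402 passed without control replicate 2 (-0.43, adjusted p = 0.0388).

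Of the 8 other measured genes of these families none passed against control in the model with group means alone. The replicate number, once added to the model, brought 2 of the 8 past the threshold as lower under FGF overexpression than in control. Against SU5402 it brought 3 past it as lower. Of named genes 3.69% and 13.2% passed as lower in those comparisons. The median log2 change of the 8 genes under FGF overexpression was -0.31, against -0.01 for all named genes. Under FGF overexpression 6 of the 8 were below control, among them egr3 (-0.50, adjusted p = 0.149), fosl2l (-0.37, adjusted p = 0.249), fosaa, a second counterpart of mammalian Fos (-0.33, adjusted p = 0.0941), and the AP-1 repressor genes jdp2b (-0.41, adjusted p = 0.0502) and jdp2a (-0.29, adjusted p = 0.0684). egr2a (-0.04), egr4 (0.04) and fosl1b (0.02) were near 0. Under SU5402 the 8 changes lay between -0.29 and 0.29. FGF overexpression was lower than SU5402 for jdp2b (-0.54, adjusted p = 0.00205) and fosl2l (-0.50, adjusted p = 0.0394), 2 of 8 or 25.0%, against 24.4% of named genes in either direction and 11.9% as lower. The fosl2l means, 4.99 in FGF overexpression and 5.49 in SU5402, lay below the array medians.

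Among 49 other measured immediate early genes, 4 rose and 4 fell under SU5402, or 16.3%, close to the 14.7% of all named genes. The rises were led by gadd45ga, a growth arrest and stress gene (1.65, SE 0.12, adjusted p = 3.88e-08), and the MYC family gene myca (1.44, SE 0.12). The Krüppel-like factor genes klf2a (-0.86, SE 0.11) and klf2b (-0.82, SE 0.18) fell. Under FGF overexpression none rose and 4 fell, or 8.16%, against 5.89% of named genes (3.41% higher and 2.48% lower). They were myca (-0.58, SE 0.12, adjusted p = 0.00663), the secreted matrix protein genes ccn2a (-0.94, SE 0.20) and ccn1 (-0.71, SE 0.15), and klf11a (-0.40, SE 0.10). Once the replicate number entered the limma model, 11 of the 49 fell and none rose, against 3.69% of named genes as lower. Between FGF overexpression and SU5402, 5 of the 49 were higher and 12 lower. That is 34.7%, against 24.4% of named genes (12.5% higher and 11.9% lower). Several other immediate early genes gave values as close to control as egr1 and fosab. ier2b, btg2 and the MAP kinase phosphatase gene dusp1 were at 0.06, -0.06 and 0.06 under FGF overexpression and at 0.08, 0.07 and 0.06 under SU5402.

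Of 24 measured genes of the ERK cascade and of serum response factor, 2 rose under FGF overexpression and the same pair fell under SU5402. They were elk3, a ternary complex factor gene (0.71 under FGF overexpression, -0.42 under SU5402, adjusted p = 3.05e-06 and 0.000463), and mrtfbb, which encodes a coactivator of serum response factor (0.64 and -0.43, adjusted p = 0.000765 and 0.0100). Both treatments are set against the same control arrays. The serum response factor genes srfa and srfb did not pass in either comparison. Of 16 measured JNK and p38 kinase genes, map2k6 (-0.48) and mapk12b (-0.71) fell under SU5402 and none passed under FGF overexpression. Of 19 dimer partner and corepressor genes, cremb of the CREB family rose under SU5402 (0.76, adjusted p = 0.00252). The cremb means, 5.06 in control and 5.81 in SU5402, lay below the array medians. nab1b, which encodes a corepressor of Egr proteins, rose under FGF overexpression (0.70, adjusted p = 0.00977), and its relative nab2 was at 0.57 (adjusted p = 0.0642). The shares that passed were 8.33% (ERK cascade and serum response factor), 0.00% (JNK and p38) and 5.26% (partners and corepressors) under FGF overexpression, against 5.89% of named genes. Under SU5402 they were 8.33%, 12.5% and 5.26%, against 14.7%. Between FGF overexpression and SU5402 they were 20.8%, 25.0% and 26.3%, against 24.4%.

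Of 13 FGF-ERK feedback and target genes, including etv4, etv5a, the Sprouty genes and dusp6, 9 rose and none fell under FGF overexpression, with a median log2 change of 0.72. Under SU5402 8 fell and 1 rose, flrt3 (2.15, SE 0.10), with a list median of -0.58. Those are 69.2% of the list in each comparison, against 5.89% and 14.7% of named genes, and this list is known to respond in these data. Of 21 genes known as AP-1 targets in mammalian cells, 4 rose and 1 fell under FGF overexpression, and 3 rose and 2 fell under SU5402. That is 23.8% in both comparisons, against 5.89% and 14.7% of named genes, and 42.9% passed between FGF overexpression and SU5402, against 24.4%. The AP-1 target list too was chosen with earlier results of these data known, so these shares are a description. The hyaluronan receptor gene cd44a (1.57, SE 0.18) and the matrix metalloprotease gene mmp9 (1.24, SE 0.16) rose under FGF overexpression. hbegfb, an EGF family ligand gene, was lower under FGF overexpression (-0.91, SE 0.13) and higher under SU5402 (3.12, SE 0.13). The list's medians were 0.09 and -0.06. None of 18 measured heat shock genes passed against control in either comparison.

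**Figure D3:**
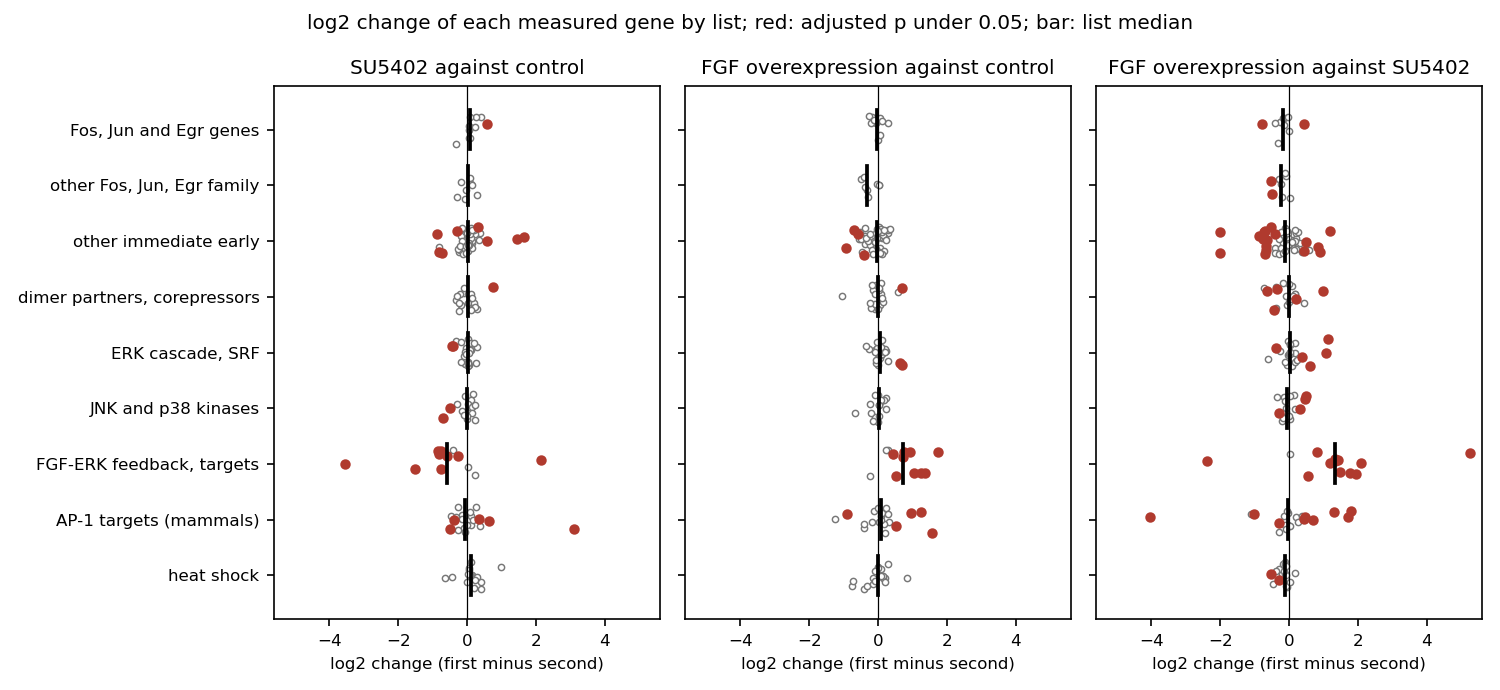
Log2 change (x axis, first group minus second) of every measured gene of 9 lists (y axis) in the 3 comparisons, with red points for an adjusted p under 0.05 and a bar at each list's median. The Fos, Jun and Egr genes sit within -0.33 and 0.57 of control. The FGF-ERK feedback and target genes reach 1.73 under FGF overexpression, and -3.53 and 2.15 (flrt3) under SU5402.

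Within a group most of the Fos and Jun genes went up and down together from array to array. After the group mean was taken from each value, 25 of the 45 pairs of members had a Pearson correlation above 0.5 over the 18 arrays, with a median of 0.54 and a range of -0.31 to 0.90. The closest pair was fosab and junba (0.90), whereas fosb was at 0.28 with jun and 0.21 with jund. egr1 followed the Jun genes less closely, at -0.31 with jund, -0.29 with jun, 0.00 with junbb and 0.19 with junba. With the Fos genes it was at -0.11 (fosl1a), 0.15 (fosl2), 0.26 (fosab) and 0.61 (fosb), and with egr2b at 0.53. These correlations are a description with no test, since the values share arrays and their normalization. Differences that go with the replicate number were not removed and enter each pair.

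**Figure D4:**
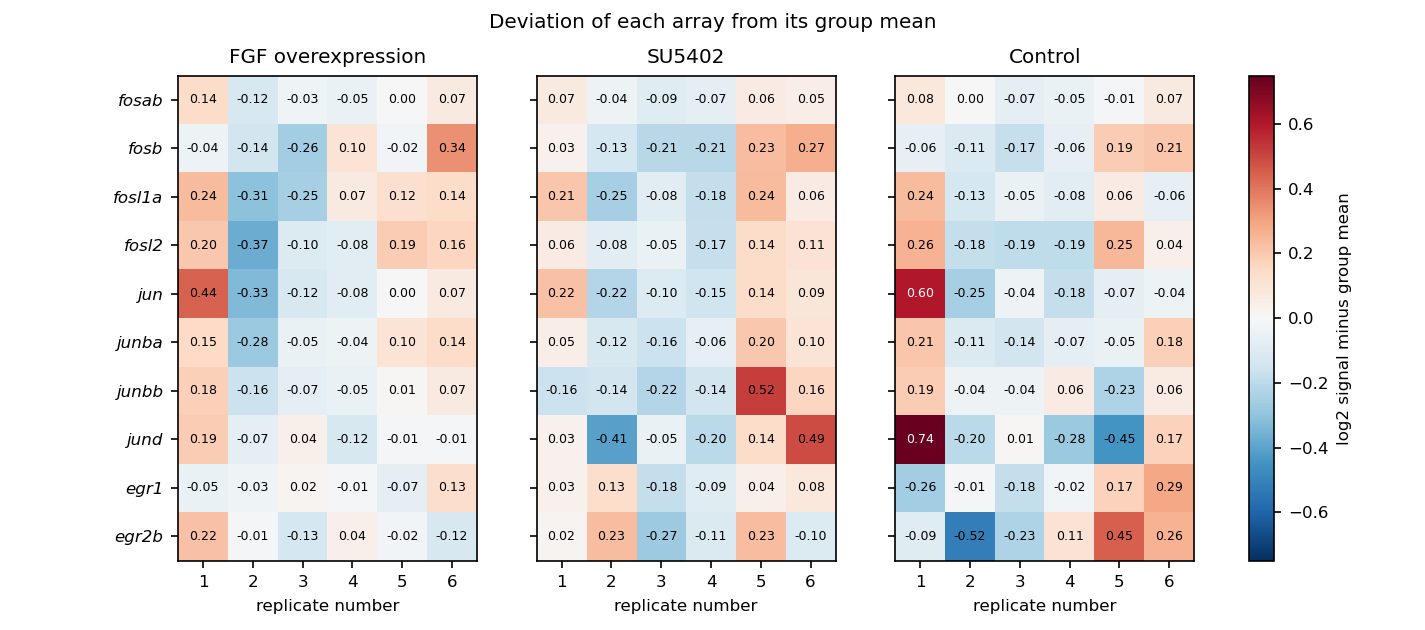
Log2 signal minus the group mean for each Fos, Jun and Egr gene (rows) on each array (columns, by replicate number) of the 3 groups, with red for above and blue for below the mean. The replicate 1 arrays of control reach 0.60 for jun and 0.74 for jund, and the replicate 2 array of FGF overexpression lies below its group mean for all 10 genes.

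Over the same 18 deviations, the named genes outside the group most like fosl2 were pcf11, a transcript 3′ end processing gene (0.96), crema (0.90), csrnp1b (0.90), mbd2 (0.89) and mknk1 (0.89), where the median over 16921 candidate genes was -0.03 for fosl2. Those most like fosab were crema of the CREB family (0.92), nocta (0.91), rbbp6 (0.91), trim13 (0.90) and the Notch target gene hey1 (0.89). Those most like egr1 were the myosin gene myo5aa (0.85), map1b (0.84), bloc1s3 (0.83), sult3st5 (0.83) and cnot4b (0.83). The highest of that many correlations are chosen values and carry no test.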

How the data were processed

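The authors deposited log2 signals for every probe set on each array. The submitters' processing notes name RMA and Affymetrix Power Tools, without versions. RMA corrects background, makes arrays alike in distribution and summarises probes, so overall shifts between arrays are removed. RNA was labelled with the Ambion WT Expression Kit, per the labels' protocols. Neither the isolation of the cells nor the array's genome build is given in the sources used here. Values were used as deposited. Groups came from the sample titles. All 18 arrays entered 1 model with a mean per group (R 4.3.3, package limma 3.58.1), covering 75212 probe sets (20806 with 1 symbol, 855 with several, 53551 with none). Differences were tested two-sided, adjusted by Benjamini-Hochberg over all probe sets at 0.05. The fit was tested on simulated data. The number of arrays limits the precision. For genes with more than 1 probe set the brightest stood for the gene. Of 317 list symbols 284 were found, 6 of them through an Entrez ID. The members and all lists were chosen with earlier results of these data known. All members were named, with up to 4 genes per list by smallest p and all measured family genes. Some genes were named outside that rule, among them srfa, srfb, cldnb and cxcr4b. ier2b, btg2 and dusp1 were picked as examples close to control. The promoter motif search fixed in the design was not run, as no sequences were used. Alternatives were other fits, scalings and filters, and leaving out arrays.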

Additional observations from a re-analysis of the deposited data

Results flagged for a closer look

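For jun, control replicate 1 read 11.10, while the other 5 control arrays lay between 10.25 and 10.46. Its gap to the nearest control array was 0.753 of the range of that group, past the critical value of Dixon's test for 6 samples. It was the single array so found among 30 sets of 6 values (10 genes in 3 groups), and chance alone picks out about 1 in 20. jund was also highest on that array (9.43, next 8.86), below the same limit. Replicate 1 was the highest jun array in FGF overexpression (10.94) and in SU5402 (11.13) too.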

How the results depend on the processing

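Each of the 30 log2 changes (10 genes, 3 comparisons) was recomputed under 33 settings, 6 of which, leaving out all arrays of 1 replicate number, were chosen after seeing the data. fosl2 stayed past the threshold in all 33 for SU5402 against control (0.54 to 0.63) and for FGF overexpression against SU5402 (-0.82 to -0.70), and 21 of the 30 never passed. For SU5402 against control the count of genes past the threshold was 2 in place of 1 (fosl2 and jun) with array weights, with the replicate number as a block, with dim probe sets left out and with only probe sets of 1 symbol, and 1 to 2 when arrays were left out. For FGF overexpression against SU5402 it was 5 in place of 2 with a trended and robust variance and with the replicate block, 4 with array weights, with dim probe sets left out and with only probe sets of 1 symbol, 3 (jun added) with only the groups compared, with quantile normalization and with identical probe sets taken once, 2 after a shift of array medians, and 1 to 4 when arrays were left out. For FGF overexpression against control it was 0 in every setting. With the replicate block jun passed under SU5402 (adjusted p = 0.00373), and fosb, fosl1a and jun passed as lower in FGF overexpression than in SU5402 (adjusted p = 0.0252, 0.00975 and 0.00201). jun was higher in SU5402 than in control in 6 of 6 same-numbered pairs, and higher in FGF overexpression than in SU5402 in 0 of 6. Of named genes 16.8% (7.31% higher) and 26.7% (13.2% lower) passed in those comparisons with the block. Against control, fosab, fosb, fosl1a and fosl2 were higher in FGF overexpression in 0 of 6 same-numbered pairs and junba in 1. There jun, junbb, jund, egr1 and egr2b were higher in 3 to 5 of 6 pairs. Same-numbered arrays correlated in their deviations over all probe sets at 0.01 to 0.23, and arrays of different numbers at -0.22 to 0.14. Of the same-numbered pairs, 3 of 6 were above 0.1 for FGF overexpression and control. For FGF overexpression and SU5402 it was 3 of 6, and for SU5402 and control 2 of 6. By this cut of 0.1 the numbers were not taken to pair the samples in the main model. The cut does not show that the samples were unpaired. Over named genes alone 5, 6 and 4 of 6 pairs in those comparisons were above 0.1. Sign changes were confined to values near 0. jun in FGF overexpression against control was at 0.00 with array weights and with quantile normalization and -0.10 to 0.11 when arrays were left out. jund in FGF overexpression against SU5402 was at -0.02 with array weights and -0.07 to 0.11 when arrays were left out, and egr1 there was at 0.01 after a shift of array medians and 0.00 with quantile normalization. The cause of these changes was not tested. No gene here has another probe set, so that alternative gave no value. Whether signals near the top of the array's range were compressed for fosab, egr1, fosl1a and junba was not measured.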

Other observations

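Arrays with the same replicate number held similar positions for many of these genes, although nothing in the labels says what a number stands for. Replicate 1 was the highest array of its group in 17 of 30 gene and group combinations and the lowest in 1. Replicates 2 and 3 were the lowest in 12 each. Arrays that tied were each counted. jun and fosab were highest in replicate 1 in all 3 groups, and jun and fosl1a were lowest in replicate 2 in all 3. fosb was highest in replicate 6 and lowest in replicate 3 in all 3, in SU5402 tied with replicate 4 at 10.06. The replicate number accounted for 61.5% of the variance over the 18 arrays for junba, 60.3% for fosb, 51.4% for jun and 50.3% for fosab, against a median of 27.9% over named genes. For fosl2 it accounted for 18.4%, and the group for 77.9%. For egr1 the group accounted for 9.55%, less than the median of 23.6%.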
